A study of Mus musculus with 9 samples.

Results

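Tgfbi and 7 further genes for proteins of the extracellular matrix, for matrix cross-linking enzymes and for clotting proteins made by monocytes (Fn1, Thbs1, Vcan, F13a1, F10, Tgm2 and Ecm1) were followed in sorted monocytes of a mouse model of neuromyelitis optica (NMO). The 8 genes were taken by symbol from the 23238 symbols of the count files, and all 8 were among the 10107 genes that passed the filter on low counts. They were chosen by name with differences of these same libraries already known, Tgfbi for its difference between the groups, so their fold changes are given as a description. Where calls of these genes are counted in the main fit, the share of all genes called stands beside them. For alternatives in which the count changed, the closing section gives the calls over all genes. Nothing is read from any of these calls. Nor_Bl_mono were blood monocytes of untreated normal mice, NMO_Bl_mono were blood monocytes of NMO mice, and NMO_Br_mono were monocytes from the brain of NMO mice. All mice were adult female wild-type C57BL/6N animals. NMO mice had received NMO-IgG with human complement in the striatum of one side and were sampled at day 1, and the normal mice received neither agent. There were 3 libraries a group, with the cells of 5 mice pooled for every library. The cells were sorted as CD45+CD11b+P2ry12-Ly6C+Ly6G-, from blood after a density gradient and from brain after enzymatic digestion and Percoll separation. No normal brain monocytes were analysed, so the effects of tissue, injection, cell isolation and NMO-IgG on the brain libraries cannot be told apart. Between the blood groups the effects of injection, complement and NMO-IgG cannot be told apart either, since the normal mice were untreated.

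The extracellular matrix is the meshwork of proteins and polysaccharides around cells, to which cells attach through integrins and CD44. The brain has little fibrous matrix outside its vessels and meninges, and monocytes that enter injured tissue are a known source of fibronectin, thrombospondin and other provisional matrix proteins. Transglutaminases stabilise such a matrix by linking glutamine to lysine residues, and TGF-beta is the best known inducer of many matrix genes, the one after which Tgfbi is named.

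In the GENCODE vM21 annotation of mm10, the build of the submitters' processing notes, Tgfbi lies at chr13:56609523-56639562 on the plus strand. Vcan lies at chr13:89655312-89742509 and F13a1 at chr13:36867178-37050244, both on the minus strand. The others lie at chr1:71585520-71653200 (Fn1, minus), chr2:118111876-118127133 (Thbs1, plus), chr2:158116402-158146436 (Tgm2, minus), chr3:95734147-95739569 (Ecm1, minus) and chr8:13037308-13056676 (F10, plus). Thus 3 of the 8 genes (37.5%) were on chromosome 13, which held 3.86% of the 9716 tested genes with a position. The strand used in counting is not given in the sources used here. Exons of Tgm2 share 370 bases with Rprd1b on the opposite strand, whose own level was at most 118 CPM (read counts scaled to a common library size with TMM factors) in any library. Exons of Fn1 share 292 bases with the antisense gene Apol7d, which had no count in any library. Further exon overlaps on the opposite strand were 633 bases of Tgm2 with Gm20412, 208 of Thbs1 with Gm29233 and 74 of F13a1 with Gm30489. Ecm1 shares 63 bases with Mir7014 on the same strand. The levels of these overlapping genes are not given here. Tgfbi, Vcan and F10 share no exon bases with another annotated gene.

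Sequence before the transcription start was available for Tgfbi, Vcan, F13a1, F10 and Ecm1. The 250 bases before the start are shown (RefSeq, GRCm38.p6, 5ʹ to 3ʹ on the gene's strand) for 3 genes that were higher in NMO_Br_mono by their means and for F13a1, which was lower, so that genes of both directions can be compared. The sequence of F10 is not shown. Capitals mark the letters of the AP-1 motif TGANTCA, the TATA motif TATAAA, the PU.1-type motif GAGGAA and the SP/KLF motif GGGCGG, each searched on both strands.
Tgfbi, chr13:56609336-56609585, plus strand: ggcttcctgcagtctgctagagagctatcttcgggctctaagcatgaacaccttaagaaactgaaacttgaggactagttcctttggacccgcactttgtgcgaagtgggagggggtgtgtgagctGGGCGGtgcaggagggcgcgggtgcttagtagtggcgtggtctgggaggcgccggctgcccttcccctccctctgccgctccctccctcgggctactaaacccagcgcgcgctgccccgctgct
Vcan, chr13:89742513-89742762, minus strand: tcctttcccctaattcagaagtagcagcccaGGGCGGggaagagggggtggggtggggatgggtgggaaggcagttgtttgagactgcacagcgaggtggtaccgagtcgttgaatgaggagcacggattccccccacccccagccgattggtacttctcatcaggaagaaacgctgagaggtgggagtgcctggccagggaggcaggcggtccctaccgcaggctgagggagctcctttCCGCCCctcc
Ecm1, chr3:95739570-95739819, minus strand: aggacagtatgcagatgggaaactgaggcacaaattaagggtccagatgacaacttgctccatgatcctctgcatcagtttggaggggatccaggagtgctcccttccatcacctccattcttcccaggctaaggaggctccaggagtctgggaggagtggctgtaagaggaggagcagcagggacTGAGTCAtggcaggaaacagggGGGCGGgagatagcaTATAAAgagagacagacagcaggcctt
F13a1, chr13:37050245-37050494, minus strand: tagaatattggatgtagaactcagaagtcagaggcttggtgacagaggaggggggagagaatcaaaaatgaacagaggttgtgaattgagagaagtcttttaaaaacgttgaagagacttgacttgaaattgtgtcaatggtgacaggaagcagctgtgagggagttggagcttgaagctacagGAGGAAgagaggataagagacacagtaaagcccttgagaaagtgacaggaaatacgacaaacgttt
Tgfbi held a single GGGCGG, 124 bases before its start, and Vcan held this motif at 219 and 10 bases before its start. Of 32851 promoter windows of this length, 32.7% held it. Ecm1 held TGANTCA 64 bases before its start (6.75% of windows), GGGCGG at 42 and TATAAA at 27 (12.4% of windows). F13a1 held GAGGAA at 66 (23.3% of windows), and a second annotated start of this gene held none of the marked motifs. The SMAD motif CAGACA (17.1% of windows) was found in Ecm1 only among these genes, 15 bases before the start, and TTGCNNAA of the C/EBP type (9.56% of windows) in none of them. F10 held none of the 6 motifs. The RefSeq start of Tgfbi lies inside the GENCODE span of the gene, so the end of its window is transcribed in that annotation. Such matches describe letters only.

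Among the genes for matrix adhesion proteins, Tgfbi encodes a secreted protein that binds collagens and integrins. Its level was 155, 364 and 369 CPM in Nor_Bl_mono, 314, 416 and 360 CPM in NMO_Bl_mono, and 1745, 1469 and 2078 CPM in NMO_Br_mono, for replicates 1, 2 and 3 in turn. Every brain library was therefore above every blood library, and the 2 blood groups overlapped. The means were 296 ± 122 CPM in Nor_Bl_mono, 364 ± 51.1 CPM in NMO_Bl_mono and 1764 ± 305 CPM in NMO_Br_mono (SD, n = 3). The fitted log2 fold change (edgeR, with its standard error) was 2.28 ± 0.38 for NMO_Br_mono against NMO_Bl_mono, 2.57 ± 0.39 for NMO_Br_mono against Nor_Bl_mono, and 0.30 ± 0.37 for NMO_Bl_mono against Nor_Bl_mono. The blood difference rested on 1 library, since it was -0.013 without Nor_Bl_mono replicate 1.

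Fn1 encodes fibronectin, the adhesive glycoprotein of provisional matrix. It stood at 246, 512 and 419 CPM in Nor_Bl_mono, at 350, 673 and 593 CPM in NMO_Bl_mono, and at 937, 1054 and 659 CPM in NMO_Br_mono. NMO_Br_mono replicate 3 lay just below NMO_Bl_mono replicate 2, so these groups overlapped, whereas all brain libraries were above all Nor_Bl_mono libraries. Its fitted log2 fold change was 0.71 ± 0.40 between the NMO groups and 1.17 ± 0.40 for NMO_Br_mono against Nor_Bl_mono. For the blood groups, which overlapped, it was 0.46 ± 0.40, with 0.21 without Nor_Bl_mono replicate 1, 0.26 without NMO_Bl_mono replicate 2, 0.70 without Nor_Bl_mono replicate 2 and 0.69 without NMO_Bl_mono replicate 1.

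Thbs1 encodes thrombospondin 1, which platelets also store and which can release active TGF-beta from its latent complex. Its level was 329, 254 and 528 CPM in Nor_Bl_mono, 363, 376 and 146 CPM in NMO_Bl_mono, and 1276, 874 and 1059 CPM in NMO_Br_mono. As for Tgfbi, every brain library was above every blood library and the blood groups overlapped, with NMO_Bl_mono replicate 3 the lowest of all. Fitted log2 fold changes were 1.86 ± 0.44 against NMO_Bl_mono (1.55 without NMO_Bl_mono replicate 3) and 1.53 ± 0.44 against Nor_Bl_mono. Between the blood groups it was -0.33 ± 0.43, with a sign that changed in 2 of 19 alternatives (0.018 without Nor_Bl_mono replicate 3, 0.24 by limma-voom), and it was -0.0012 without NMO_Bl_mono replicate 3.

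Vcan encodes versican, a chondroitin sulfate proteoglycan that binds hyaluronan and is abundant in classical monocytes. The libraries held 111, 51.2 and 35.1 CPM in Nor_Bl_mono and 346, 372 and 322 CPM in NMO_Bl_mono, with no overlap. In NMO_Br_mono it ranged widely, at 1073, 455 and 237 CPM, and replicate 3 lay below all NMO_Bl_mono libraries. For NMO_Bl_mono against Nor_Bl_mono the log2 fold change was 2.40 ± 0.61 and stayed between 2.09 and 3.01 in 19 alternatives, but Vcan was not called there by edgeR and was called in 1 of the 19, by DESeq2. For NMO_Br_mono it was 3.16 ± 0.62 against Nor_Bl_mono. Between the NMO groups it was 0.76 ± 0.58, and this rested on 1 library: without NMO_Br_mono replicate 1 it was -0.0024, and without NMO_Br_mono replicate 3 it was 1.15.

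Ecm1 encodes a secreted glycoprotein that binds other matrix proteins, and it was the gene of the 8 with the lowest counts. It stood at 32.2, 25.1 and 4.47 CPM in Nor_Bl_mono, 39.4, 20.2 and 92.5 CPM in NMO_Bl_mono, and 84.2, 30.3 and 227 CPM in NMO_Br_mono. The means followed the order of the groups, from 20.6 ± 14.4 through 50.7 ± 37.4 to 114 ± 102 CPM (SD, n = 3), but every pair of neighbouring groups overlapped. NMO_Br_mono differed from NMO_Bl_mono by a log2 fold change of 1.17 ± 1.15, by 0.19 without NMO_Br_mono replicate 3 and by 1.95 without NMO_Bl_mono replicate 3. Against Nor_Bl_mono it was 2.47 ± 1.20 for NMO_Br_mono (1.49 without NMO_Br_mono replicate 3) and 1.30 ± 1.15 for NMO_Bl_mono (0.54 without NMO_Bl_mono replicate 3 and 0.82 without Nor_Bl_mono replicate 3).

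**Figure D1:**
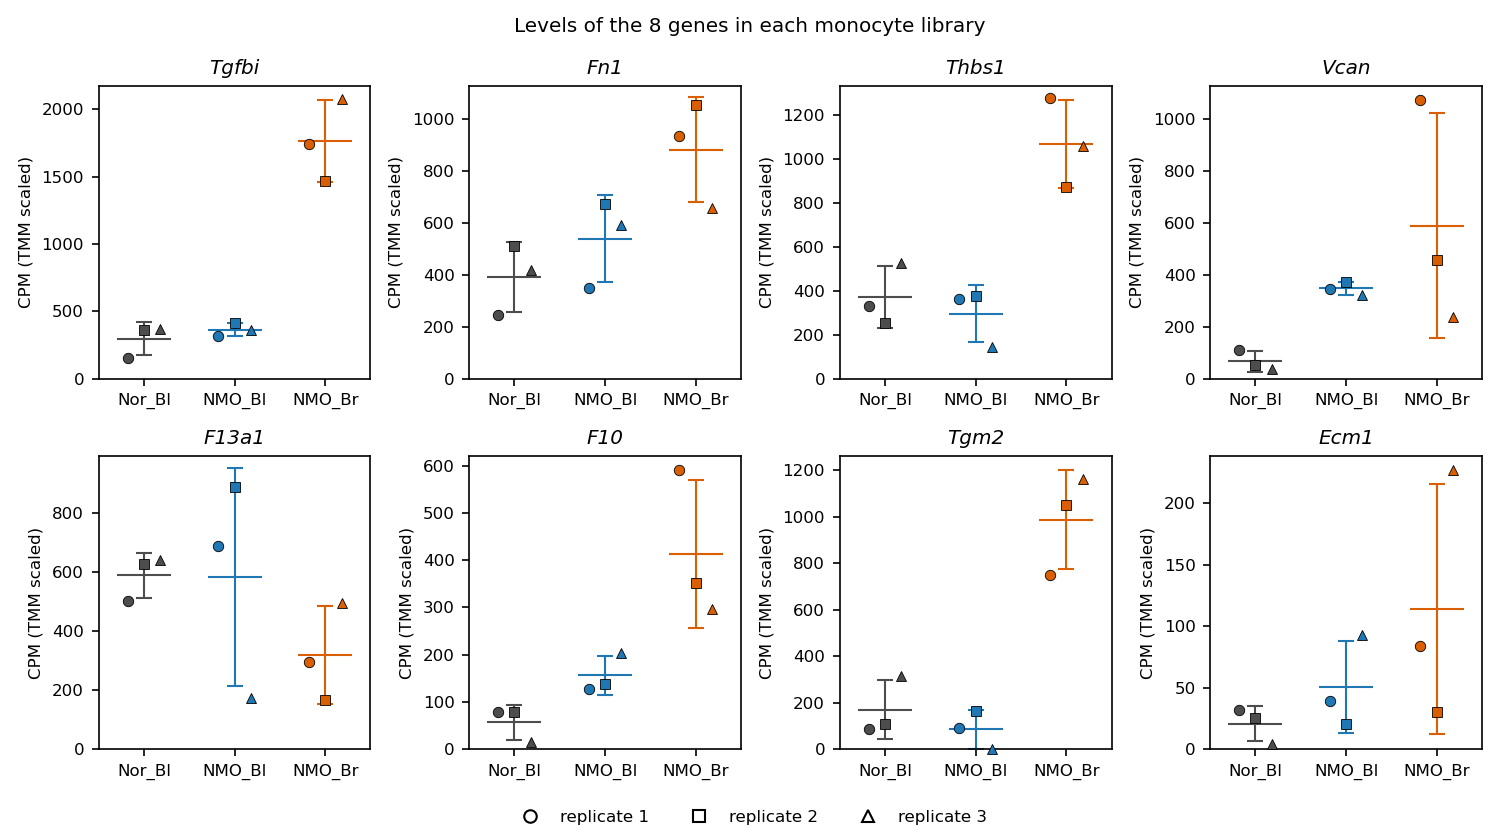
Each panel plots the level of 1 gene in CPM (TMM scaled, linear axis from 0) in the 9 libraries of sorted monocytes, with the mean as a horizontal line and the SD as error bars (n = 3 per group). Tgfbi, Thbs1, F10 and Tgm2 were higher in all 3 NMO_Br_mono libraries than in any NMO_Bl_mono library, Vcan and F10 were higher in all NMO_Bl_mono than in any Nor_Bl_mono library, and F13a1 had its lowest mean in NMO_Br_mono.

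The 2 transglutaminases differed in direction. Tgm2 encodes tissue transglutaminase, which acts inside cells and in the matrix. Its level was 88.4, 107 and 315 CPM in Nor_Bl_mono, 89.6, 166 and 0 CPM in NMO_Bl_mono, and 750, 1050 and 1161 CPM in NMO_Br_mono. All brain libraries were above all blood libraries. The log2 fold change between the NMO groups, 3.53 ± 1.36, included the library with a count of 0, where 3 counts correspond to 0.271 CPM; it was 2.96 without that library and 4.48 without NMO_Bl_mono replicate 2. Against Nor_Bl_mono it was 2.54 ± 1.31, and for the blood groups, which overlapped, -0.999 ± 1.25. This last value was -0.20 without Nor_Bl_mono replicate 3, -0.41 without NMO_Bl_mono replicate 3 and -1.92 without NMO_Bl_mono replicate 2.

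F13a1 encodes the A subunit of coagulation factor XIII, the transglutaminase that cross-links fibrin and is carried by monocytes and platelets. It stood at 501, 625 and 640 CPM in Nor_Bl_mono, 688, 885 and 173 CPM in NMO_Bl_mono, and 294, 167 and 495 CPM in NMO_Br_mono. The brain libraries were all below the Nor_Bl_mono libraries, the highest of them by a small margin, and NMO_Bl_mono replicate 3 lay within the brain range while the other 2 NMO_Bl_mono libraries were the highest of all 9. The log2 fold change was -0.87 ± 0.55 against NMO_Bl_mono and -0.88 ± 0.55 against Nor_Bl_mono, negative in all 19 alternatives for both. Single libraries moved the size: against NMO_Bl_mono it was -0.42 without NMO_Bl_mono replicate 2, -0.54 without NMO_Br_mono replicate 2 and -1.32 without NMO_Br_mono replicate 3, and against Nor_Bl_mono it was -0.56 and -1.34 without those same brain libraries. Between the blood groups it was -0.02 ± 0.54, and 0.42 without NMO_Bl_mono replicate 3.

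F10 encodes coagulation factor X, the zymogen of the protease that activates prothrombin. Its level was 79.0, 77.5 and 13.9 CPM in Nor_Bl_mono, 127, 138 and 204 CPM in NMO_Bl_mono, and 591, 352 and 297 CPM in NMO_Br_mono. It was the only gene of the 8 whose 3 groups were fully ordered, with no overlap between Nor_Bl_mono and NMO_Bl_mono or between NMO_Bl_mono and NMO_Br_mono. The log2 fold change was 1.46 ± 0.65 for NMO_Bl_mono against Nor_Bl_mono, 1.40 ± 0.65 for NMO_Br_mono against NMO_Bl_mono and 2.86 ± 0.68 for NMO_Br_mono against Nor_Bl_mono.

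Across the 8 genes, 1 (Tgfbi) was called at an adjusted p under 0.05 (edgeR's quasi-likelihood test) for NMO_Br_mono against NMO_Bl_mono, where 0.247% of all genes tested were called. For NMO_Br_mono against Nor_Bl_mono the count was again 1, Tgfbi, with 0.247% of all genes called, and for NMO_Bl_mono against Nor_Bl_mono it was 0, with 0% of all genes called. In this last comparison 72 of all genes tested had an unadjusted p under 0.05 by edgeR, limma-voom called 0 genes and DESeq2 called 51 higher and 21 lower. The median log2 fold change of the 8 genes was 1.28 between the NMO groups (0.05 over all genes tested), 0.38 between the blood groups (-0.16 over all genes) and 2.50 for NMO_Br_mono against Nor_Bl_mono (-0.12 over all genes). Because these genes were chosen on differences of these libraries, nothing is read from these counts and medians, and comparisons that share a group are not independent of each other.

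Counted by libraries, 4 of the 8 genes (Tgfbi, Thbs1, F10 and Tgm2) were higher in every NMO_Br_mono than in every NMO_Bl_mono library, a pattern held by 6.3% of all genes tested, and none was lower in all of them (6.05% of all genes). Without NMO_Bl_mono replicate 3 the higher genes were the same 4 (7.39% of all genes were then higher), and F13a1 was lower (20.3% of all genes were then lower). Without NMO_Br_mono replicate 3 Fn1 and Vcan were also higher, 6 genes in all against 10.97% of all genes. Between the blood groups 2 genes, Vcan and F10, were higher in every NMO_Bl_mono library, against 2.34% of all genes, and none was lower, against 4.45%. For NMO_Br_mono against Nor_Bl_mono 6 genes were higher, all but F13a1 and Ecm1, against 6.07% of all genes, and F13a1 was lower, against 9.37%. Without Nor_Bl_mono replicate 1 Ecm1 was also higher in this comparison, 7 genes in all against 8.86% of all genes, and F13a1 was lower, against 12.9%.

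**Figure D2:**
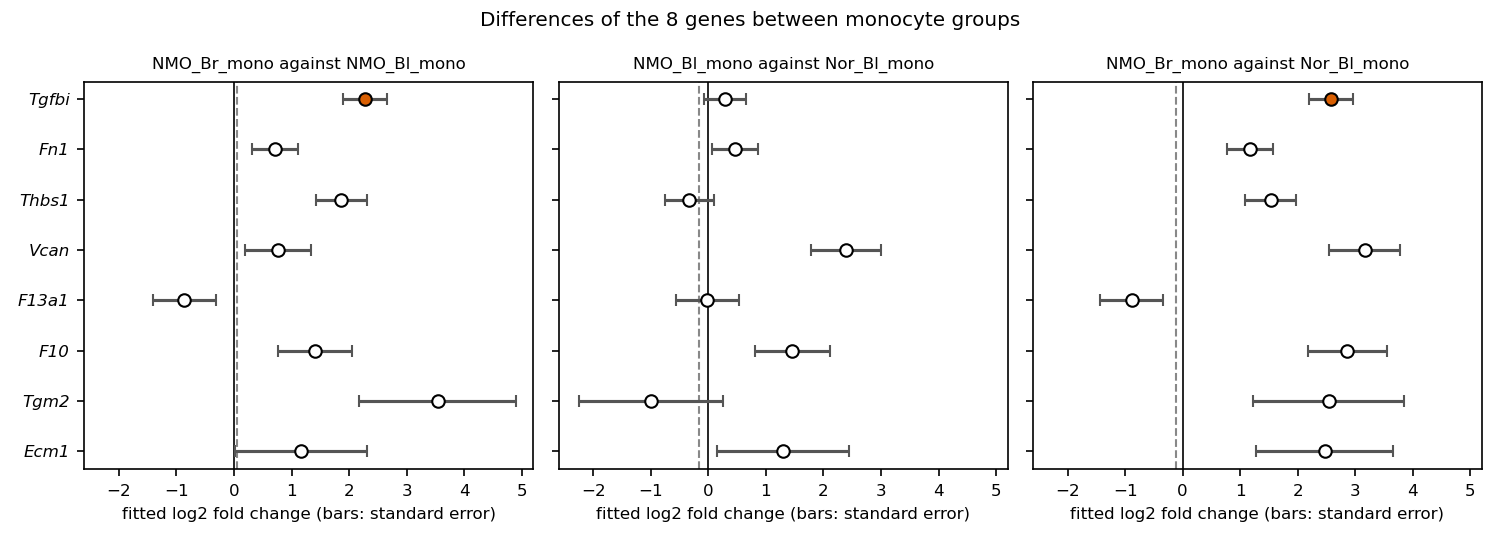
The 3 panels plot the fitted log2 fold change of each gene on the horizontal axis (points, with standard errors as bars) for the comparisons named above them, with filled points for genes called at an adjusted p under 0.05 and a dashed line at the median of all genes tested. Tgfbi, chosen on this difference, so that its call is no finding, was at 2.28 and 2.57 against the blood groups, whereas Vcan at 2.40 and F10 at 1.46 had the largest values between the blood groups.

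The genes thus fell into patterns that were set by their means and overlaps in these libraries. Tgfbi, Thbs1 and Tgm2 were high in NMO_Br_mono while the blood groups overlapped. F10 stepped up from Nor_Bl_mono through NMO_Bl_mono to NMO_Br_mono, Vcan did so between the blood groups with a wide range in brain, and Fn1 and Ecm1 followed this order by their means with overlaps. F13a1 alone was lower in NMO_Br_mono by its mean. Across the 9 libraries Pearson's r of log2(CPM + 1) between 2 genes was 0.89 for Vcan with F10 and 0.89 for Thbs1 with Tgm2, but 0.08 for Vcan with Tgm2. These values describe 9 libraries that share their groups and depth.

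**Figure D3:**
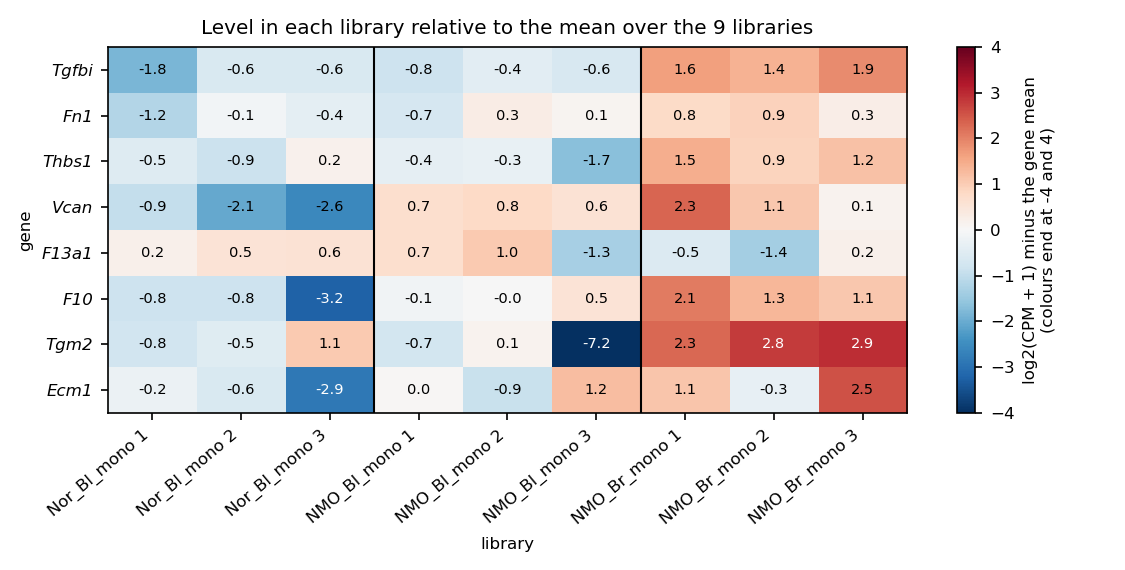
Each cell gives log2(CPM + 1) of a gene (rows) in a library (columns) minus the mean of that gene over the 9 libraries, with black lines between the groups and colours that end at -4 and 4. The brain columns are positive for Tgfbi, Fn1, Thbs1, Vcan, F10 and Tgm2 and mixed for F13a1 and Ecm1, and the lowest cell is Tgm2 in NMO_Bl_mono replicate 3, where its count was 0.

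The genes whose level was most like that of Tgfbi across the 9 libraries were Lgals8, C1qc, Ptprm, Ccl7 and Serpina3k, with Pearson's r of 0.949, 0.949, 0.948, 0.948 and 0.947 among 6922 genes with a mean of at least 20 CPM in some group. Lgals8 encodes a galectin, a lectin that binds galactose-containing sugars, and was measured in every library, from 44.5 to 118 CPM in blood and from 179 to 239 CPM in brain. C1qc (a chain of complement C1q), Ptprm (a receptor phosphatase) and Ccl7 (a chemokine for monocytes) had a count of 0 in all 6 blood libraries and 79.9 to 122, 11.6 to 34.4 and 140 to 208 CPM in the brain libraries. Serpina3k has near-identical paralogs that reads could align to as well, which leaves its count uncertain. Its rank was 20 with log2(CPM + 0.1). Without NMO_Bl_mono replicate 3, Lgals8, C1qc, Ptprm, Ccl7 and Serpina3k ranked 5, 7, 9, 8 and 2. Of the other 7 genes, Fn1 was closest to Tgfbi (r = 0.84, rank 66), followed by Thbs1 (0.82, rank 84), F10 (0.68), Tgm2 (0.60), Vcan (0.54), Ecm1 (0.52) and F13a1 (-0.40). This order changed without NMO_Bl_mono replicate 3, to Tgm2 (0.94, rank 19), Thbs1 (0.91, rank 49), Fn1 (0.86, rank 98), F10 (0.72), Ecm1 (0.61), Vcan (0.58) and F13a1 (-0.62).

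Genes that belong with these proteins were examined in 5 lists, 186 genes of which 96 were tested. None of the 96 passed an adjusted p of 0.05 in any of the 3 comparisons (edgeR), where 0.247%, 0% and 0.247% of all genes did. The number with an unadjusted p under 0.05 was 11 between the NMO groups (5.32% of all genes), 4 between the blood groups (0.712% of all genes) and 13 between NMO_Br_mono and Nor_Bl_mono (5.82% of all genes). Between the NMO groups DESeq2 called 5 of them and limma-voom 2. Of all 10107 genes tested DESeq2 called 77 higher and 257 lower there, and limma-voom 44 higher and 7 lower. The shares given above are those of edgeR. The share of positive log2 fold changes over all genes tested was 51.4% between the NMO groups, and the shares of genes higher or lower in every NMO_Br_mono library were the 6.3% and 6.05% given above, beside which the counts of each list below stand.

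Of 29 tested genes of TGF-beta ligands, activators and signalling, 15 had a positive log2 fold change between the NMO groups, with a median of 0.09, and 3 were higher and 2 lower in every NMO_Br_mono library (6.3% and 6.05% of all genes). Pmepa1, a TGF-beta target that restrains SMAD signalling, was at 54.2, 173 and 96.8 CPM in NMO_Br_mono and at 0 in 5 of 6 blood libraries, with 1.81 CPM in NMO_Bl_mono replicate 1 (log2 fold change 7.48 ± 2.43, adjusted p = 0.66, edgeR). The receptor gene Tgfbr1 was at 80.5, 95.4 and 88.3 CPM in NMO_Br_mono, 12.8, 22.9 and 0 CPM in NMO_Bl_mono and 31.5 to 49.7 CPM in Nor_Bl_mono (2.89 ± 1.62, adjusted p = 0.85). The co-receptor gene Eng was at 37.2 to 102 CPM in brain and at most 22.8 CPM in blood (3.12 ± 2.12, adjusted p = 1). Smad7, an inhibitor of the pathway, was at 18.8, 1.32 and 0 CPM in NMO_Br_mono and 32.2 to 85.2 CPM in NMO_Bl_mono (-3.26 ± 1.76, adjusted p = 0.81), and the repressor gene Tgif2 was at most 8.51 CPM in brain and at least 15.04 CPM in blood (-3.87 ± 1.92, adjusted p = 0.80). Tgfb1 itself, named here outside the rule, was at 5.17, 144 and 0 CPM in NMO_Br_mono and at most 15.5 CPM in blood.

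Of 23 tested genes of integrins and other receptors for these proteins, 13 had a positive value (median 0.34), and 3 were higher and 3 lower in every brain library (6.3% and 6.05% of all genes). Cd44, the hyaluronan receptor, was at 1015, 1094 and 1143 CPM in NMO_Br_mono, 568, 705 and 482 CPM in NMO_Bl_mono and 735, 1018 and 1010 CPM in Nor_Bl_mono, so the brain overlapped the normal blood range (0.89 ± 0.30 between the NMO groups, adjusted p = 0.72). Lrp1, an endocytic receptor that clears thrombospondin 1, was at 303 to 500 CPM in NMO_Br_mono and 196 to 244 CPM in NMO_Bl_mono (0.88 ± 0.45, adjusted p = 0.80), and the collagen receptor gene Itga1 at 20.1 to 33.8 CPM and at most 5.52 CPM (2.98 ± 2.88, adjusted p = 1). Itga4, the integrin chain that binds fibronectin and VCAM-1, stood at 54.1, 142 and 107 CPM in NMO_Br_mono, 447, 363 and 739 CPM in NMO_Bl_mono and 577, 723 and 420 CPM in Nor_Bl_mono. Its log2 fold change of -2.35 ± 0.49 had the lowest adjusted p of the 96 genes between the NMO groups (adjusted p = 0.082), and it was called with no filter on low counts and by DESeq2. Itga2, a collagen receptor chain of platelets and some lymphocytes, had no count in NMO_Br_mono and 19.3 to 33.3 CPM in NMO_Bl_mono, at least 86.1-fold lower against a floor of 3 counts per library (adjusted p = 0.43). Cd47, a receptor of thrombospondin 1, was at 151 to 249 CPM in brain and 270 to 350 CPM in NMO_Bl_mono (-0.59 ± 0.47, adjusted p = 1).

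Of 15 tested genes of other secreted matrix and matricellular proteins, 13 had a positive value (median 1.64, with 51.4% positive over all genes), and 3 were higher in every brain library and none lower (6.3% and 6.05% of all genes). Spp1, osteopontin, was at 177, 147 and 284 CPM in NMO_Br_mono and at 0 in 5 of 6 blood libraries, with 10.9 CPM in NMO_Bl_mono replicate 1 (5.81 ± 2.07, adjusted p = 0.80). Sparc, a collagen-binding matricellular protein, was at 109, 75.5 and 313 CPM in NMO_Br_mono and at most 12.2 CPM in blood (6.98 ± 2.35, adjusted p = 0.69). Srgn, the proteoglycan of secretory granules, was at 1740, 2572 and 1802 CPM in NMO_Br_mono and 841 to 1414 CPM in blood (0.89 ± 0.28 between the NMO groups, adjusted p = 0.59). These genes are not particular to monocytes (endothelium expresses Sparc, and platelets express Sparc and Srgn), and markers of those cells are given below.

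Of 9 tested genes of cross-linking and hyaluronan, 8 had a positive value (median 1.66), and 2 were higher in every brain library (6.3% of all genes) and none lower (6.05%). P4hb, a subunit of the collagen prolyl hydroxylase, was at 295, 411 and 180 CPM in NMO_Br_mono and 125 to 149 CPM in NMO_Bl_mono (1.08 ± 0.53, adjusted p = 0.80). Its partner chain P4ha1 was at 132, 42.2 and 69.5 CPM in NMO_Br_mono and 37.5, 39.8 and 0 CPM in NMO_Bl_mono (1.66 ± 2.02, adjusted p = 1). Of 22 tested genes of coagulation and fibrinolysis, 15 had a positive value (median 1.23), with 2 higher and 1 lower in every brain library (6.3% and 6.05% of all genes). Gas6, a vitamin K-dependent ligand of the TAM receptors, was at 2.81, 27.5 and 56.9 CPM in NMO_Br_mono against a count of 0 throughout blood, at least 86.0-fold higher than in NMO_Bl_mono against the same floor (adjusted p = 0.80). Lman1, the cargo receptor for coagulation factors V and VIII, was at 82.1 to 101 CPM in brain and at most 43.0 CPM in blood (1.95 ± 1.56, adjusted p = 1). F5, the cofactor that factor X needs to activate prothrombin, was at 53.2, 0.0946 and 54.2 CPM in NMO_Br_mono and 114 to 159 CPM in NMO_Bl_mono (-1.94 ± 1.26, adjusted p = 1), so the direction of its difference was opposite to that of F10.

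**Figure D4:**
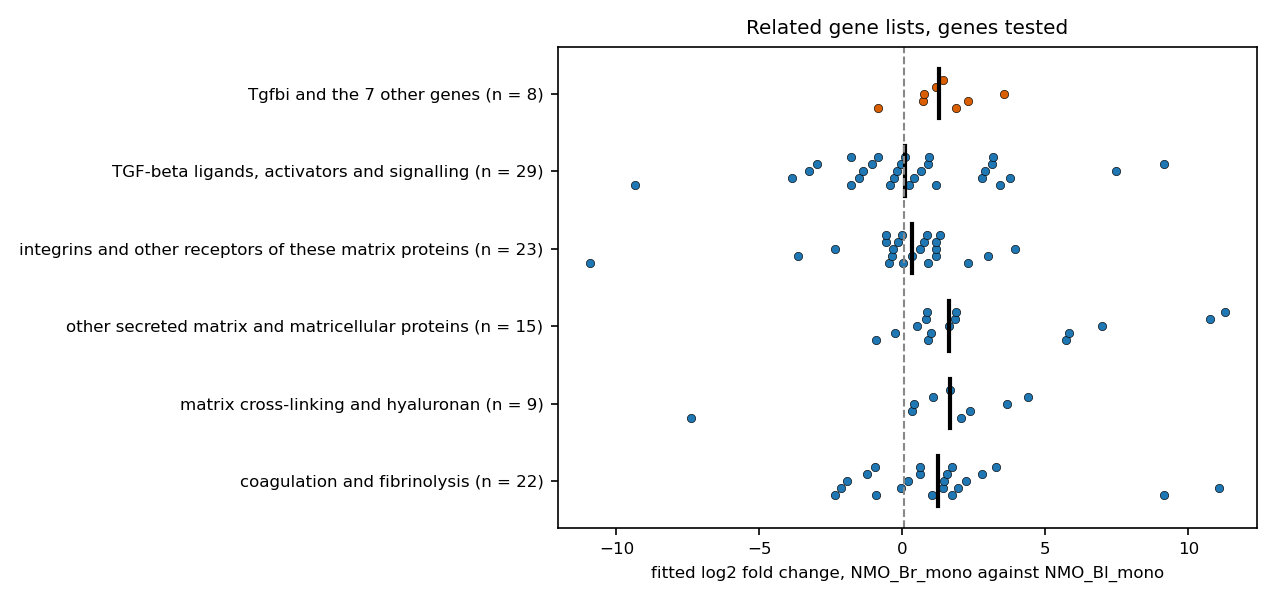
Each point is the fitted log2 fold change of a tested gene between NMO_Br_mono and NMO_Bl_mono on the horizontal axis, by list, with a thick line at the median of the list and a dashed line at the median of all genes tested (0.05). The medians were 1.28 for Tgfbi and the 7 other genes, 0.09 for the TGF-beta list, 0.34 for receptors, 1.64 for other matrix proteins, 1.66 for cross-linking and 1.23 for coagulation. Where all libraries of a group had a count of 0, the position of the point depends on the prior count of the fit.

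In bulk libraries, fewer cells of a type and less RNA per cell cannot be told apart, so markers of the cells that the gate could hold are given beside these results. The 14 monocyte markers summed to 8842 to 10189 CPM in Nor_Bl_mono, 6635 to 10188 CPM in NMO_Bl_mono and 5676 to 9929 CPM in NMO_Br_mono, and none was at 0 in a whole group. Irf8, a transcription factor of the monocyte lineage, was at 1271 to 1867 CPM in NMO_Bl_mono and lower, at 136 to 264 CPM, in NMO_Br_mono (log2 fold change -2.95 ± 0.34, adjusted p = 0.0018, edgeR). It was the only one of the 14 that was called, where 0.247% of all genes tested were called. Between the NMO groups 4 of the 14 were higher and 3 lower in every brain library (6.3% and 6.05% of all genes). Cd14 (1.70 ± 1.33), Ccr2 (1.15 ± 0.58) and Csf1r (1.02 ± 0.48) were among the former, and Ly6c2 (-1.45 ± 0.57) and Ptprc, the gene of the sorting antigen CD45 (-1.13 ± 0.33), among the latter (adjusted p of 0.43 to 1). The 14 platelet markers summed to 562 to 3397 CPM in Nor_Bl_mono, 635 to 2862 CPM in NMO_Bl_mono and 0 to 39.6 CPM in NMO_Br_mono, where 8 of 14 were at 0. Of the 13 tested, 2 were called between the NMO groups, both lower in brain (0.247% of all genes were called). These were Nrgn (adjusted p = 0.00065, edgeR) and Ppbp (adjusted p = 0.0031, edgeR). F13a1 and Thbs1 are also platelet genes. In NMO_Br_mono Thbs1 was at 874 to 1276 CPM and F13a1 at 167 to 495 CPM. In Nor_Bl_mono, replicate 1 had the highest platelet sum and the lowest F13a1 of its group. That group's replicate 3 had the lowest platelet sum (562 CPM) and the highest Thbs1 (528 CPM). In NMO_Bl_mono, replicate 3 had the lowest platelet sum (635 CPM) together with the lowest F13a1 (173 CPM) and Thbs1 (146 CPM). This library also lacked 22.2% of genes by the measure given below. Replicate 1 of NMO_Bl_mono had the highest platelet sum (2862 CPM). Its F13a1 (688 CPM) and Thbs1 (363 CPM) were below those of replicate 2 (885 and 376 CPM). The part of platelets in these levels was not tested.

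The 10 microglia markers summed to 514 to 918 CPM in NMO_Br_mono, 135 to 381 CPM in Nor_Bl_mono and 0.0904 to 242 CPM in NMO_Bl_mono, and none of them was at 0 in the whole brain group. Cx3cr1, which monocytes also express, made up 111 to 320 CPM of the sum in Nor_Bl_mono and 295 to 541 CPM in brain, and 6 of the 10 were at 0 in Nor_Bl_mono and 5 in NMO_Bl_mono. The 10 border macrophage markers summed to 266 to 494 CPM in NMO_Br_mono and at most 56.3 CPM in blood, with Folr2, Siglec1 and Cd209f at 0 in brain. The 9 neutrophil markers summed to 439 to 1741 CPM in brain and at most 297 CPM in blood. In NMO_Br_mono replicate 2, S100a8 was at 808 CPM, S100a9 at 656 CPM and Ngp at 243 CPM. Of the 6 tested neutrophil markers, 4 had a positive log2 fold change between the NMO groups. Retnlg went the other way, at 37.6 to 124 CPM in Nor_Bl_mono and 0 in brain. In brain Mmp9 was at 0 and Cxcr2 at most at 0.562 CPM. The microglia, border macrophage and neutrophil sums were higher in every brain library than in every blood library, as were Tgfbi, Thbs1, F10 and Tgm2. Within the brain group the order differed between these genes. Tgfbi (2078 CPM) and Tgm2 (1161 CPM) were highest in replicate 3, which had the lowest microglia and border macrophage sums (514 and 266 CPM). F10 had the same order as the border macrophage sum. Both were highest in replicate 1 (591 and 494 CPM) and lowest in replicate 3 (297 and 266 CPM). Thbs1 was highest in replicate 1 (1276 CPM) and lowest in replicate 2 (874 CPM). The part of these cells in those levels was not tested.

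The 8 endothelial markers summed to 372, 120 and 1524 CPM in NMO_Br_mono replicates 1, 2 and 3 and at most 242 CPM in blood. In replicate 3 Flt1 was at 551 CPM and Slco1a4 at 449 CPM, and this library also had the highest Tgfbi, Tgm2 and Ecm1 of the 9. In replicate 2 Flt1, Slco1a4, Cldn5, Kdr and Tek had no count and Ly6c1 was at 5.86 CPM, while Pecam1 was at 82.1 CPM and Cdh5 at 31.8 CPM, the highest of the brain libraries for both. In this library Tgfbi stood at 1469 CPM, Fn1 at 1054 CPM, Thbs1 at 874 CPM and Tgm2 at 1050 CPM, all above every blood library. It also lacked 8.28% of genes by the measure given below, which limits what a count of 0 in it shows. Over the brain replicates Tgfbi, F13a1 and Ecm1 had the same order as the endothelial sum, and Fn1, Thbs1, Vcan, F10 and Tgm2 did not. The part of endothelial cells in the levels of these genes was not tested. Fibroblast and mural markers (11 genes) summed to 0 to 94.4 CPM in brain, with Lum, Pdgfra, Pdgfrb, Rgs5 and Col3a1 at 0, and to 0 in the same replicate 2. Astrocyte markers (7 genes) were at 39.7 CPM or less in all libraries, with Aqp4, Slc1a3 and Aldh1l1 at 0 in brain.

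**Figure D5:**
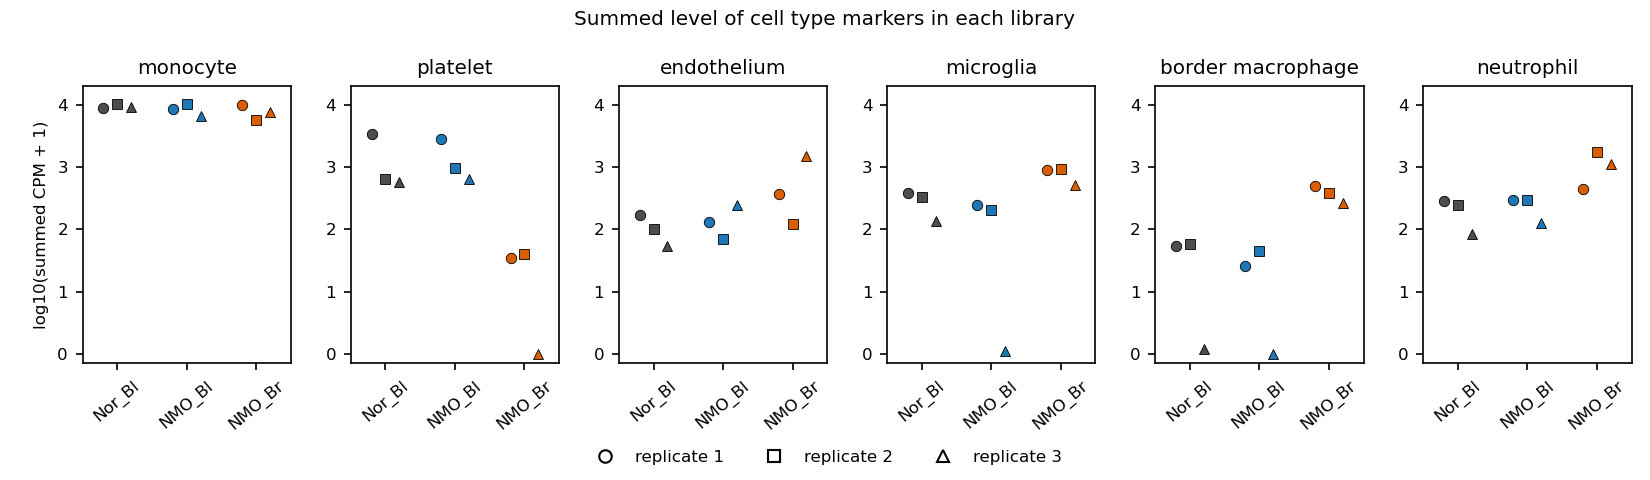
Each panel plots the summed level of a list of cell type markers in the 9 libraries, as log10(summed CPM + 1). The monocyte sum stayed between 5676 and 10189 CPM, the platelet sum was at most 39.6 CPM in NMO_Br_mono, and the endothelial sum of NMO_Br_mono replicate 3, 1524 CPM, stood above all other libraries.

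Total counts were 7584649 to 10419647 per library, and the 8 genes took 0.124% to 0.308% of the counts of a blood library and 0.576% to 0.658% of those of a brain library. Rn45s, ribosomal RNA, took 28.4% to 43.6%. NMO_Bl_mono replicate 3 stood apart, with 4567 genes detected against up to 11556 in other libraries, and 22.2% of the 2503 genes that reached 50 CPM in its companion libraries had 3 counts or fewer in it. Measured likewise, NMO_Br_mono replicate 2 lacked 8.28% and the remaining libraries at most 1.94%. Tgm2 in NMO_Bl_mono replicate 3 was the only case among the 8 genes of a count at or under 3.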

How the data were processed

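QuantSeq 3ʹ libraries of 9 pools of sorted monocytes were analysed. The authors ran Bowtie2, took coverage per gene with Bedtools from reads aligned once or several times, and deposited raw counts per gene symbol. The submitters' processing notes name mm10, and versions are not given in the sources used here. Groups came from the sample labels. Of repeated symbols (35), the entry with most counts was used. Counts were tested in R 4.3.3 with edgeR 4.0.16 (TMM factors, filterByExpr, glmQLFit and glmQLFTest over all 9 libraries, Benjamini-Hochberg adjustment over 10107 genes). CPM were scaled by TMM. The standard error is the log2 fold change divided by the square root of F. Where a group was at or under 3 counts in every library, folds are bounds against that floor, which is no limit of detection. The script was tested on simulated data as a check of the code. Its recovery at the spread of these data (common dispersion 2.87) is not given here. The paper describes the replicates of a group as independent and biological, each from pooled samples. The labels do not say how the pools were drawn, and p-values measure the spread between these libraries, which may be partly technical.

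The genes, the lists and the markers were chosen with earlier results of these data known. Named beside the 8 genes were genes called in a list (up to 4), up to 3 each way with the largest log2 fold change between the NMO groups among those with at least 20 CPM and no overlap, and the 5 most like Tgfbi. In total, 19 alternatives were run (closing section).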

Additional observations from a re-analysis of the deposited data

How the results depend on the processing

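The log2 fold change of Tgfbi between the NMO groups was 2.13 to 2.41 in 19 alternatives and was called in 16. It was not called with only these 2 groups in the fit (2.28), where 8751 genes were tested, without NMO_Bl_mono replicate 1 (2.18) or without NMO_Br_mono replicate 3 (2.16), and leaving out 1 library gave 2.16 to 2.41. Between NMO_Br_mono and Nor_Bl_mono it was called in all 19. Between the blood groups its value was -0.013 without Nor_Bl_mono replicate 1 and otherwise up to 0.48 when 1 library was left out; the cause was not tested.

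Of the 8 genes, the number called between the NMO groups (1) was 3 with no filter (Tgfbi, Thbs1, Tgm2), 2 with DESeq2 1.42.0 (Tgfbi, Thbs1), 3 with limma-voom (Tgfbi, Thbs1, Tgm2), 0 with only these 2 groups, and 0 to 1 when 1 library was left out. Between the blood groups (0) it was 1 with DESeq2 (Vcan). Between NMO_Br_mono and Nor_Bl_mono (1) it was 2 with RLE factors, 2 with library sizes alone, 4 with no filter, 3 with DESeq2, 2 with limma-voom, and 1 to 3 when 1 library was left out (3, Tgfbi, Vcan and Tgm2, without NMO_Bl_mono replicate 3; 2, Tgfbi and Vcan, without Nor_Bl_mono replicate 1 or NMO_Br_mono replicate 3). Of the 96 related genes, the number called between the NMO groups (0) was 3 with no filter (Itga4, Spp1, Sparc), 5 with DESeq2 (Pmepa1, Itga2, Itga4, Sparc, Gas6), 2 with limma-voom (Pmepa1, Cd44) and 0 to 1 when 1 library was left out (Spp1 without NMO_Bl_mono replicate 1), and between the blood groups it was 1 with DESeq2 (Ctgf). Over all genes the calls between the NMO groups (2 higher, 23 lower) were 77 and 257 with DESeq2 and 39 and 71 with no filter. They were 44 and 7 with limma-voom, whose median log2 fold change of all genes was -0.65. With only these 2 groups they were 1 and 6. They were 1 and 17 without NMO_Bl_mono replicate 1, and 0 and 15 without NMO_Br_mono replicate 3. Between the blood groups (0 and 0) DESeq2 called 51 and 21. For NMO_Br_mono against Nor_Bl_mono (3 higher, 22 lower) the calls over all genes were 121 and 246 with DESeq2, 43 and 72 with no filter and 27 and 6 with limma-voom. They were 5 and 21 with RLE factors and 8 and 28 with library sizes alone. Without NMO_Bl_mono replicate 3 they were 27 and 35, without Nor_Bl_mono replicate 1 they were 5 and 14, and without NMO_Br_mono replicate 3 they were 2 and 15.

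Samples with the same replicate number did not deviate together (correlations of -0.010 to 0.116). With 3 libraries a group these values cannot decide whether the number marks a shared pool, and the labels do not say. With the replicate number as a block, 2 of the 8 genes (Tgfbi and Vcan) were called between NMO_Br_mono and Nor_Bl_mono and 1 (Tgfbi) between the NMO groups. The calls over all genes were then 5 higher and 17 lower between NMO_Br_mono and Nor_Bl_mono, and 4 higher and 18 lower between the NMO groups. At this depth a level under 3 counts (0.271 to 0.429 CPM by library) was not detectable.

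Counts of genes without overlap when NMO_Bl_mono replicate 3, NMO_Br_mono replicate 3 or Nor_Bl_mono replicate 1 was left out were chosen after seeing the data.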
